A study of Mus musculus with 38 samples.

Results

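Adipoq, Scd1, Lpl and Car3 are 4 genes with high RNA levels in mouse fat, and they were followed here over every array of a tumor study. The members were all probes annotated to these symbols among the 16247 probes that the annotation covered, those of the deposited normalized table. Each gene had 1 such probe: ILMN_2738082 for Adipoq, ILMN_1237375 for Scd1, ILMN_2692723 for Lpl and ILMN_2630047 for Car3. They are 4 of 9890 genes tested. Total RNA of whole tissue from C57BL/6 mice, 8 weeks old, was measured on 38 Illumina bead arrays. There were 7 arrays of control tissue. The others were tumor microenvironment of the melanoma line B16, taken after inoculation with B16-WT (4 arrays at day 4, 5 at day 14), B16-shTGFb (6 at day 4, 5 at day 14) or B16-shVEGF (5 at day 4, 6 at day 14). By the usual naming, sh marks a hairpin RNA that lowers a target, here TGF-beta or VEGF. All groups share strain and age, the labels name no treatment of the control tissue and no number of clones per line, and nothing states that replicates are separate mice. P-values therefore measure only the spread between these samples, which may be technical.

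Adipocytes take up fatty acids, store them as triglyceride and secrete hormones. Lipoprotein lipase, the product of Lpl, releases fatty acids from circulating lipoproteins, and it is made by muscle as well as by fat. Stearoyl-CoA desaturase, the product of Scd1, introduces a double bond into saturated fatty acids before they enter triglyceride and is also known from liver and from the sebaceous glands of skin. Adiponectin, encoded by Adipoq, is a hormone secreted by adipocytes. Carbonic anhydrase 3, encoded by Car3, is a cytosolic enzyme abundant in fat, in liver and in slow skeletal muscle. Fat and muscle lie beneath mouse skin and can be sampled along with a tumor or with control tissue, so each gene was set against fat markers and against Ckm, the muscle creatine kinase.

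Adipoq was the 1 member of the 4 held by the set of promoters at hand, so the sequence directly upstream of its gene start is printed. It was searched for CCAAT, letters that the factor NF-Y is known for. It is the RefSeq sequence of build GRCm38.p6, chr16:23146286-23146535, plus strand, 250 bases that end at the base before the annotated start. Capitals mark CCAAT on either strand, where the reverse strand reads ATTGG.
Adipoq: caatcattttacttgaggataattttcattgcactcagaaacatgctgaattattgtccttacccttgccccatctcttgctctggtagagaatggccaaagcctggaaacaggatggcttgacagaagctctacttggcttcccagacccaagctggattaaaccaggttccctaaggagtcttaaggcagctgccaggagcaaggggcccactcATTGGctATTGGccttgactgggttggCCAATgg
The motif matched 3 times, with 1 match on the plus strand and 2 on the minus strand, and the matches began 34, 27 and 7 bases before the start. Of 32851 promoters in the same set, 33.8% held CCAAT at least 1 time in the same window. The share with 3 matches was not counted, so nothing is said on whether 3 is unusual. TATAAA matched 0 times on either strand and was held by 12.4% of promoters. A match is only a match of letters. Scd1, Lpl and Car3 were absent from the set, so their upstream sequences were not searched.

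Arrays had 16519 to 22897 probes with a detection p under 0.05, and their median raw signal lay between 105 and 155. All levels are on the log2 scale, background-corrected and quantile-normalized here, and no fold between probes is given, since levels of different probes are not comparable; mean signal was used only to choose which list genes to name. On D4-4, D14-2 and D14-5, all of B16-WT, most fibroblast and muscle markers were near background: the fibroblast list averaged 5.72 to 6.04 there against at least 9.86 on the other 35 arrays, and the muscle list 5.35 to 5.54 against at least 8.07. Not every gene of these lists was low there. The fibroblast gene Fbln1 read 11.83, 11.04 and 11.39 on the 3 arrays, of which 11.83 was its highest level in the series, Pdgfra read 7.77 on D4-4, the muscle enolase Eno3 read 9.63 to 10.55, and the muscle genes Mylpf and Tnnt1 were detected on all 38 arrays. The melanocyte list averaged 11.84 to 12.20 on these 3 arrays. The labels' tissue was not mirrored by the melanocyte markers elsewhere: their list mean ran from 5.47 to 12.36 on control arrays, a range that overlapped every tumor group, and it was 5.16 on a shTGFb day 4 array. Group differences are given with and without the 3 arrays. Relations between genes are given over the other 35 arrays, with those of each member to fat and to Ckm also over all 38. In such whole-tissue RNA, fewer cells of a type and less RNA per cell cannot be told apart.

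Adipoq was detected on 35 arrays and was near background on 3 B16-WT arrays. On the 7 control arrays its log2 level ran from 9.05 through a median of 12.16 to 12.74. In B16-WT tissue the day 4 arrays read 8.996, 12.46, 11.11 and 4.73, and the day 14 arrays 12.41, 4.98, 10.64, 11.22 and 5.00. The lowest value at day 4 was D4-4 and the lowest at day 14 were D14-2 and D14-5, where the probe's detection p lay between 0.177 and 0.303. The other B16-WT arrays overlapped the control range except D4-1, at 8.996. In shTGFb tissue the 6 day 4 arrays ran from 10.96 through 11.40 to 13.58, and the day 14 arrays read 11.88, 11.56, 10.80, 12.09 and 8.79. In shVEGF tissue the day 4 arrays read 11.40, 12.73, 9.98, 12.04 and 11.18, and the 6 day 14 arrays ran from 9.55 through 12.06 to 12.96. Both lines overlapped control at both times. The highest Adipoq level of all 38 arrays was 13.58, on D4-T2, and the lowest outside the 3 arrays was 8.79, on D14-T5.

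Scd1 was the member that stayed detected on every array. Control arrays ran from 12.25 through 13.89 to 14.02. The B16-WT day 4 arrays read 12.03, 14.16, 13.46 and 10.54, and the day 14 arrays 14.18, 9.85, 12.45, 13.40 and 11.13. The 3 lowest levels of the series were again D14-2, D4-4 and D14-5, but at 9.85, 10.54 and 11.13 the probe was detected, with a detection p of 0 on each. The shTGFb day 4 arrays ran from 13.15 through 13.40 to 14.36, and the day 14 arrays read 13.72, 13.58, 12.26, 13.98 and 11.60. The shVEGF day 4 arrays read 13.66, 14.27, 11.72, 13.44 and 12.78, and the day 14 arrays ran from 12.05 through 13.60 to 14.35. Every group of either line overlapped control.

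Lpl was at background on the 3 B16-WT arrays and detected on the other 35. Control arrays ran from 11.79 through 13.85 to 14.23. The B16-WT day 4 arrays read 11.85, 13.77, 13.36 and 4.51, and the day 14 arrays 14.11, 4.63, 11.24, 13.36 and 4.61. The 3 low values were at background, with detection p from 0.373 to 0.588, and D14-3 at 11.24 was the one other B16-WT array below the control range. The shTGFb day 4 arrays ran from 13.14 through 13.61 to 14.39, and the day 14 arrays read 13.39, 13.61, 12.14, 13.87 and 9.14. The shVEGF day 4 arrays read 13.36, 14.19, 12.06, 13.48 and 12.44, and the day 14 arrays ran from 12.35 through 13.81 to 14.28. D14-T5, at 9.14, was the lowest array outside the 3, and all groups overlapped control.

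Car3, like Adipoq and Lpl, was detected on 35 arrays. Control arrays ran from 9.96 through 13.67 to 14.51. The B16-WT day 4 arrays read 9.25, 13.74, 13.18 and 4.39, and the day 14 arrays 13.80, 4.42, 11.60, 12.76 and 4.55. The 3 low values were at background, with detection p from 0.507 to 0.874. The shTGFb day 4 arrays ran from 9.80 through 13.44 to 14.35, and the day 14 arrays read 13.20, 13.67, 10.76, 13.96 and 9.72. The shVEGF day 4 arrays read 13.20, 14.20, 13.15, 14.26 and 8.46, and the day 14 arrays ran from 11.58 through 13.60 to 13.98. Low Car3 arrays occurred in nearly every group, with D4-V5 at 8.46 the lowest outside the 3, and no group separated from control. Over the 35 arrays the SD of the log2 level was 1.64 for Car3, 1.16 for Adipoq, 1.08 for Lpl and 0.81 for Scd1.

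**Figure D1:**
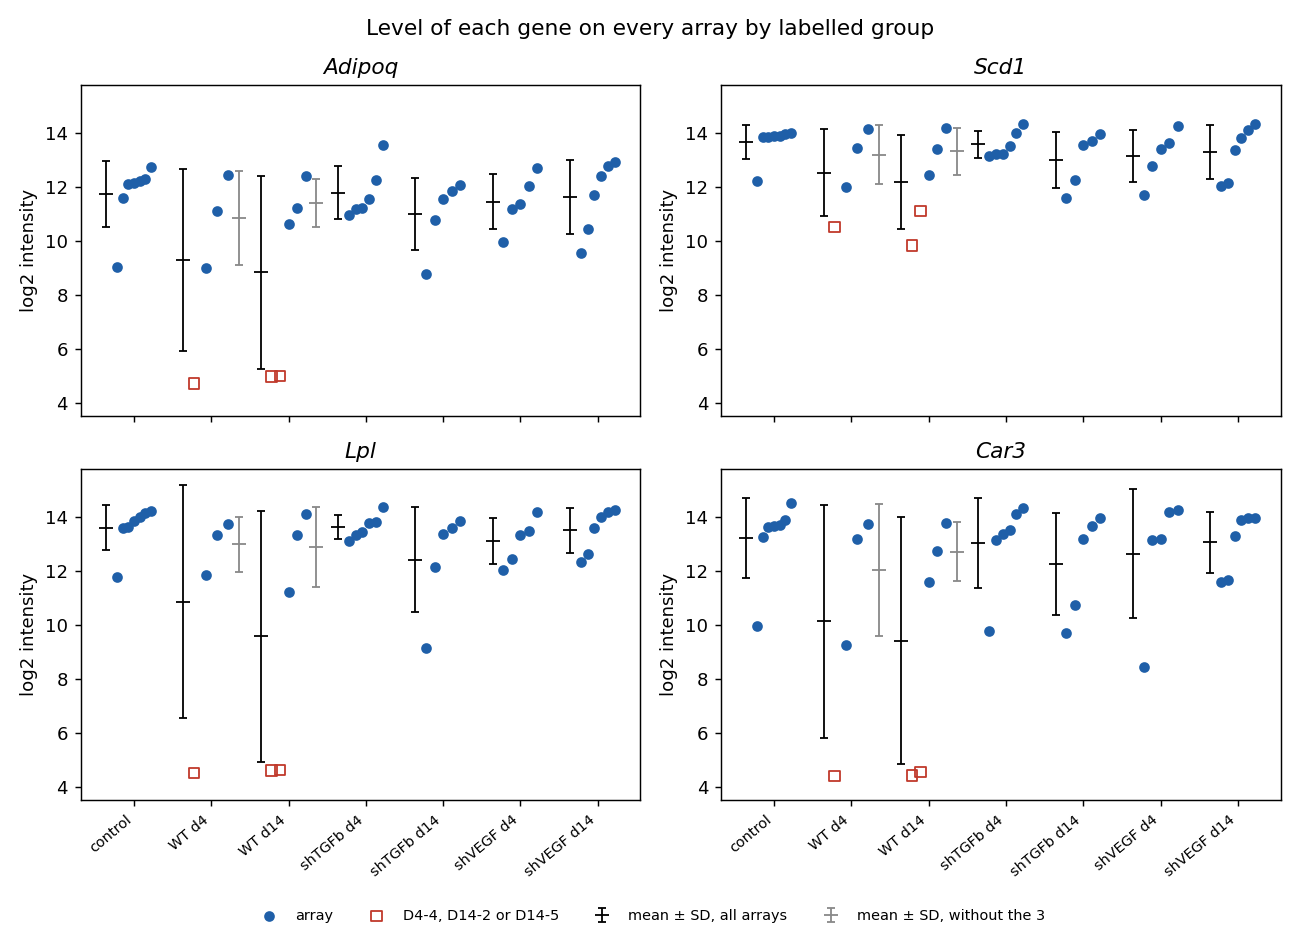
Log2 intensity of Adipoq, Scd1, Lpl and Car3 (y axis) on each of 38 arrays by labelled group (x axis); blue dots are arrays, red open squares D4-4, D14-2 and D14-5, black bars the mean ± SD of all arrays and grey bars the mean ± SD without those 3. The red squares lie between 4.39 and 5.00 for Adipoq, Lpl and Car3 but between 9.85 and 11.13 for Scd1, and the blue dots of every group overlap.

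Ordered by group mean, both B16-WT groups came last for all 4 genes when every array was used. Adipoq averaged 11.75 ± 1.23 (SD, n = 7) in control tissue, 9.32 ± 3.38 (n = 4) at day 4 and 8.85 ± 3.58 (n = 5) at day 14 of B16-WT. Lpl averaged 13.61 ± 0.84 in control tissue, 10.87 ± 4.32 at day 4 and 9.59 ± 4.66 at day 14. Car3 averaged 13.24 ± 1.49, 10.14 ± 4.32 and 9.43 ± 4.58 in the same order of groups, and Scd1 13.68 ± 0.63, 12.55 ± 1.61 and 12.20 ± 1.74. No gap between neighbouring groups in the order exceeded the larger of their SDs for any of the 4 genes. Without the 3 arrays the B16-WT day 14 mean (n = 3) was 11.42 ± 0.91 for Adipoq, 13.35 ± 0.87 for Scd1, 12.90 ± 1.49 for Lpl and 12.72 ± 1.10 for Car3, and it ranked between 3 and 6 among the 7 groups. Without them the day 4 mean of B16-WT (n = 3) was 10.85 ± 1.75 for Adipoq and 12.06 ± 2.45 for Car3, still the lowest of the 7 groups for both. The share of the variance that lay between the 7 groups dropped from 27.6% to 7.64% for Adipoq, from 20.3% to 8.20% for Scd1, from 31.3% to 15.9% for Lpl and from 25.6% to 5.91% for Car3. Part of such a share arises by chance where groups do not differ. The F test given below called none of the 4 genes, with or without the 3 arrays.

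Wild-type tumor tissue against control is the first question of the design, and no member passed the test there. At day 14 the fitted differences were -2.90 (SE 1.11) for Adipoq, -1.48 (SE 0.61) for Scd1, -4.02 (SE 1.31) for Lpl and -3.81 (SE 1.47) for Car3 on the log2 scale. Adipoq, Lpl and Car3 each had a limma adjusted p of 0.143 and Scd1 had 0.154, so 0 of 4 members were called, and 0% of all 9890 genes were. At an unadjusted limma p under 0.05, 4 of 4 members passed, where 25% of all genes did. Means over these 5 arrays rest on 2 arrays with Adipoq, Lpl and Car3 at background, so their size carries the background level with it. Without the 3 arrays the differences were -0.33 (SE 0.81) for Adipoq, -0.33 (SE 0.57) for Scd1, -0.71 (SE 0.72) for Lpl and -0.51 (SE 1.15) for Car3, with an adjusted p of 0.999 for each. The 95% interval without them ran from -1.99 to 1.33 for Adipoq and from -2.18 to 0.77 for Lpl, which spans changes of several-fold in either gene. The call depended on single arrays in the other direction as well: without D14-1 limma called 4 of 4 members and 1436 genes, and without D14-4 it called Adipoq, Lpl and Car3 and 1271 genes.

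At day 4 the B16-WT differences from control were -2.43 (SE 1.19) for Adipoq, -1.13 (SE 0.66) for Scd1, -2.74 (SE 1.41) for Lpl and -3.09 (SE 1.57) for Car3. Each had a limma adjusted p of 0.725, and 0 of 4 members and 0% of genes were called. Adipoq alone had an unadjusted p under 0.05, at 0.0488, where 1.98% of genes did. Without D4-4 and the other 2 arrays the differences were -0.89 (SE 0.81), -0.46 (SE 0.57), -0.62 (SE 0.72) and -1.18 (SE 1.15), in the same order of genes. Between day 14 and day 4 of B16-WT, limma gave -0.47 (SE 1.27) for Adipoq and -1.28 (SE 1.51) for Lpl, each with an adjusted p of 1.00. No member had an unadjusted p under 0.05 there, where 0.637% of genes did.

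In tissue of the shTGFb and shVEGF lines the differences of the 4 genes from control lay between -1.18 and 0.057 with all arrays. The differences from control at day 4 of shTGFb were between -0.18 for Car3 and 0.057 for Adipoq. At day 14 of shTGFb they were -0.72 (SE 1.11) for Adipoq, -0.65 (SE 0.61) for Scd1, -1.18 (SE 1.31) for Lpl and -0.97 (SE 1.47) for Car3. For shVEGF they ran from -0.58 for Car3 to -0.28 for Adipoq at day 4, and from -0.36 for Scd1 to -0.091 for Lpl at day 14. In these 4 comparisons limma called 0 of 4 members and 0% of genes, and 0 members had an unadjusted p under 0.05, where 3% and 1.26% of genes did for shTGFb at day 4 and day 14, and 1.08% and 0.222% for shVEGF. With all arrays the intervals were wide, from -2.50 to 2.58 for Lpl at day 4 of shTGFb.

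Against B16-WT on the same day, the shVEGF tissue at day 14 had higher means of all 4 genes with all arrays, none past the test. The differences were 2.80 (SE 1.15) for Adipoq, 1.12 (SE 0.64) for Scd1, 3.93 (SE 1.36) for Lpl and 3.64 (SE 1.52) for Car3, with limma adjusted p of 0.150, 0.247, 0.141 and 0.150. No member and 0% of genes were called. Adipoq, Lpl and Car3 had an unadjusted p under 0.05, 3 of 4 members, where 25.7% of genes did. Without the 3 arrays the differences were 0.23, -0.028, 0.62 and 0.35, each with an adjusted p of at least 0.997. Here too, limma called Adipoq, Lpl and Car3 without D14-1 (1210 genes) and without D14-4 (1627 genes). The shTGFb tissue at day 14 differed from B16-WT by 2.18 (SE 1.20) for Adipoq, 0.83 (SE 0.66) for Scd1, 2.84 (SE 1.42) for Lpl and 2.83 (SE 1.58) for Car3. Those 4 differences changed sign without the 3 arrays, to -0.40, -0.32, -0.47 and -0.46. These comparisons share the B16-WT arrays, so their like values are not independent of each other.

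Over all 17 comparisons and the F test for any difference among the 7 groups, limma called 0 of 4 members, and 0% of genes, with and without the 3 arrays. In the F test Lpl had the lowest unadjusted p of the 4, at 0.0375 (adjusted p = 0.637), and 6.41% of genes had an unadjusted p under 0.05. Without the 3 arrays the unadjusted F test p was between 0.467 and 0.920 for the 4 genes, and 0.93% of genes were under 0.05. At an unadjusted p under 0.05, 0 members passed for shTGFb against B16-WT, where 8.2% of genes did at day 4 and 14.2% at day 14, nor for shVEGF against B16-WT at day 4, where 2.55% did. Between the days, 0 members passed for shTGFb or shVEGF, where 4.9% and 0.607% of genes did. The same held for shTGFb against shVEGF, with 4.28% of genes at day 4 and 0.768% at day 14, and for the 2 interaction terms, with 1.39% for shTGFb and 1.01% for shVEGF.

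**Figure D2:**
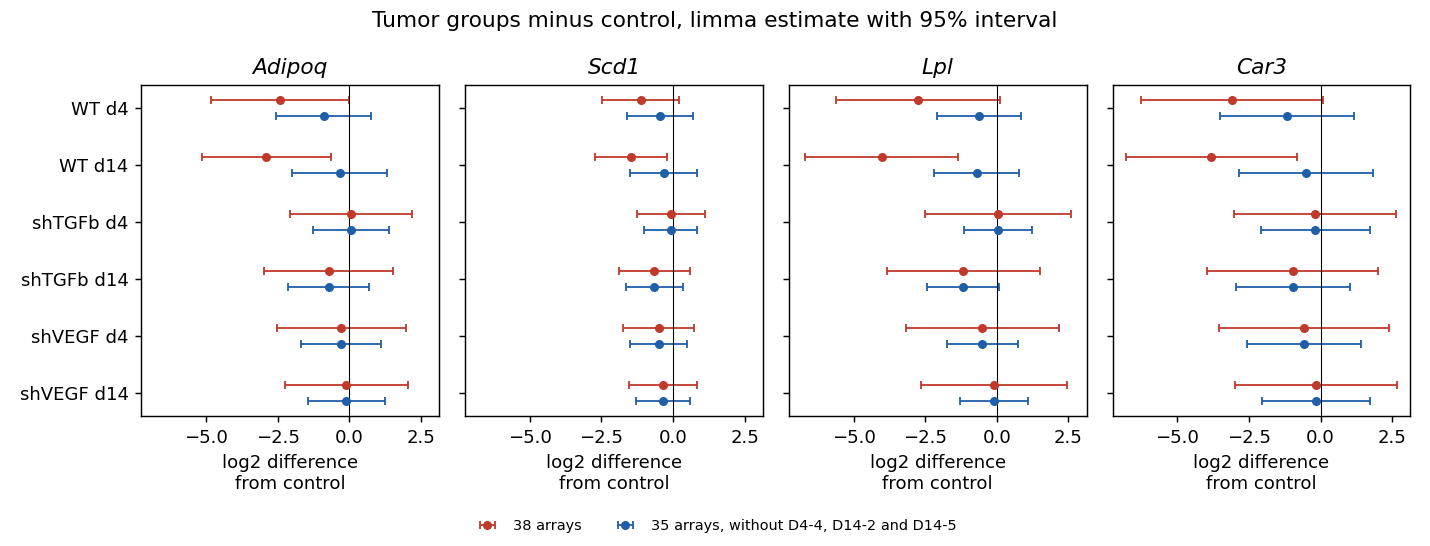
Fitted log2 difference of each tumor group from control (x axis) with its 95% interval, for Adipoq, Scd1, Lpl and Car3, from all 38 arrays (red) and from 35 arrays without D4-4, D14-2 and D14-5 (blue). The B16-WT rows move from -2.90 to -0.33 for Adipoq and from -4.02 to -0.71 for Lpl at day 14, and all blue intervals include 0.

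Each gene was then set against fat and against muscle over the 35 arrays other than D4-4, D14-2 and D14-5. The fat marker mean was the average log2 level of Adig, Lep, Plin1, Plin4, Cidec, Pparg, Cebpa, Aqp7 and Acvr1c, the 9 measured of 16 fat genes listed, none of them a member. These encode, among others, the hormone leptin, perilipins and Cidec of the lipid droplet, and PPAR-gamma, the master regulator of fat cell formation. It ran from 6.65 on D4-1 to 10.30 on D4-T2. Ckm ran from 7.65 on D4-V5 to 14.31 on CTRL 5. Fat and Ckm were themselves related over these arrays, with Pearson r = 0.521 and Spearman rho = 0.466, so both were also fitted together. All correlations below were tested by permutation with 100000 resamples, two-sided, and adjusted over 15 relations, and 1e-05 is the smallest p the resampling can give.

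Over these 35 arrays Adipoq moved with fat, and its slope on Ckm beside fat had an interval that included 0. Its r with the fat marker mean was 0.944 (rho = 0.951, permutation p = 1e-05, adjusted p = 1.5e-05), and with Ckm 0.504 (rho = 0.483, permutation p = 0.002, adjusted p = 0.002). Without the 2 arrays farthest from the median of each measure the values were 0.936 and 0.469. Within groups, on deviations from group means, they were 0.946 and 0.493. Fitted together, Adipoq rose by 1.09 log2 units per SD of the fat marker mean (95% interval 0.93 to 1.25), and its slope was 0.019 per SD of Ckm (-0.14 to 0.18). On all 38 arrays the Ckm slope was 0.33 per SD of Ckm over those arrays, a larger SD (least squares p = 0.0239, n = 38). The fat slope exceeded the Ckm slope by 1.07 (0.79 to 1.35), and both terms accounted for 89.1% of the variance.

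Scd1 was likewise related to fat over the 35 arrays. Its r with fat was 0.953 (rho = 0.929) and with Ckm 0.562 (rho = 0.454), with permutation adjusted p of 1.5e-05 and 0.000508. Within groups the values were 0.956 and 0.560, and without the 2 farthest arrays 0.942 and 0.503. In the joint fit the fat slope was 0.73 (0.63 to 0.83) and the Ckm slope 0.072 (-0.028 to 0.17). Their difference was 0.66 (0.49 to 0.84), and 91.4% of the variance was accounted for. The Ckm slopes of Adipoq and Scd1 had an interval above 0 when the fat mean was taken over Plin1, Cidec and Adig alone, at 0.15 (p = 0.0408, n = 35) and 0.18 (p = 0.00447), and that of Scd1 also without D4-V3, at 0.11 (p = 0.0447).

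Lpl followed fat more than muscle, with a part that moved with Ckm. Its r with fat was 0.855 (rho = 0.928) and with Ckm 0.618 (rho = 0.465), with permutation adjusted p of 1.5e-05 and 0.00015. The within-group values were 0.862 and 0.610, and those without the 2 farthest arrays 0.849 and 0.557. Its fat slope was 0.79 (0.57 to 1.01) and its Ckm slope 0.26 (0.038 to 0.47), a difference of 0.53 (0.15 to 0.91). The Ckm slope had a least squares p above 0.05 without D14-3 (0.20, p = 0.0561), without D4-T2 (0.25, p = 0.0547) or without normalization between arrays (0.23, p = 0.0587, n = 35). Its size also depended on single arrays: with 1 array left out at a time it ran from 0.15 to 0.30. On all 38 arrays the difference of slopes, each per SD over those arrays, was 0.48, with a least squares p = 0.29 (n = 38). D14-T5 lay 2.23 log2 units below the level fitted for Lpl, against a residual SD of 0.53.

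Car3 moved with both. Its r with fat was 0.817 (rho = 0.831) and with Ckm 0.776 (rho = 0.710), each with a permutation adjusted p of 1.5e-05. Within groups they were 0.809 and 0.781. Without the 2 farthest arrays they were 0.858 and 0.660. The joint fit gave 0.93 per SD of fat (0.65 to 1.21) and 0.79 per SD of Ckm (0.51 to 1.06). The difference of 0.14 had an interval from -0.35 to 0.63 (p = 0.556, n = 35), so neither term was shown to be the larger, and its sign turned to -0.082 with the fat mean over Plin1, Cidec and Adig. Together the terms accounted for 83.6% of the variance.

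Over all 38 arrays the correlations with fat and with Ckm were both larger than over the 35 arrays, for each of the 4 genes. The r with fat and with Ckm was 0.969 and 0.841 for Adipoq, 0.966 and 0.800 for Scd1, 0.919 and 0.884 for Lpl, and 0.927 and 0.924 for Car3. In the joint fit over all 38 arrays the fat and Ckm slopes were 1.78 and 0.33 for Adipoq, 1.04 and 0.046 for Scd1, 1.53 and 1.04 for Lpl, and 1.44 and 1.39 for Car3. These slopes are per SD over all 38 arrays, which was 1.39 for fat and 2.49 for Ckm. Over the 35 arrays the SDs were 0.94 and 1.53, so the 2 sets of slopes differ in unit and their sizes cannot be compared directly. The 3 arrays stand apart from the rest on the fat marker mean and on Ckm, so these values are given as a description of all arrays and not as a pooled relation.

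**Figure D3:**
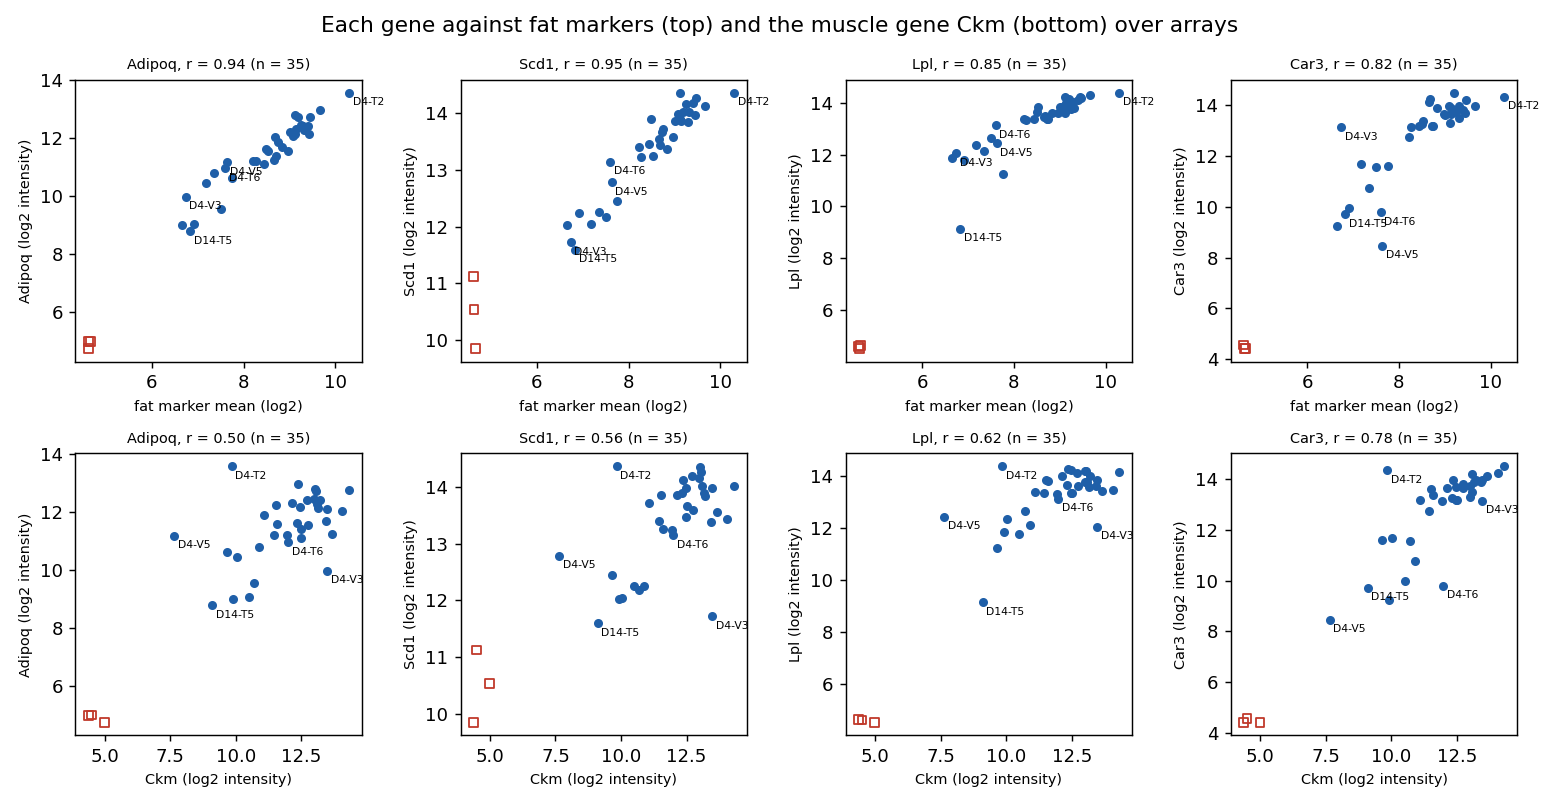
Log2 intensity of each gene (y axes) against the fat marker mean (top, x axis in log2) and against Ckm (bottom, x axis in log2 intensity) over arrays; blue dots are the 35 arrays used for r, red open squares D4-4, D14-2 and D14-5, and 5 arrays are named. Points lie closest to a line for Adipoq and Scd1 against fat (r = 0.944 and 0.953), and Car3 shows a like relation to both measures (r = 0.817 and 0.776).

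The readings of a few arrays, most of them arrays on which fat and muscle parted, are given as examples. They were picked after the fit and are part of it, so they add no test. D4-T2 had the highest fat marker mean, 10.30, with Ckm at 9.84, below all but 3 of the 35 arrays, and there Adipoq read 13.58, Scd1 14.36, Lpl 14.39 and Car3 14.35. D4-V3 was the reverse, with fat at 6.74 and Ckm at 13.48. On it Adipoq read 9.98, Scd1 11.72 and Lpl 12.06, all low, while Car3 read 13.15, which was 1.31 above its fitted level. D4-V5 had the lowest Ckm of the 35, 7.65, with fat at 7.63, itself below the median of 8.72. There Adipoq read 11.18 and Lpl 12.44, 0.75 and 0.64 above their fitted levels. Car3 read 8.46, 1.28 below its fitted level. D4-T6 did not follow this order: with fat at 7.60 and Ckm at 11.99, Car3 read 9.80, 2.14 below its fitted level against a residual SD of 0.68.

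**Figure D4:**
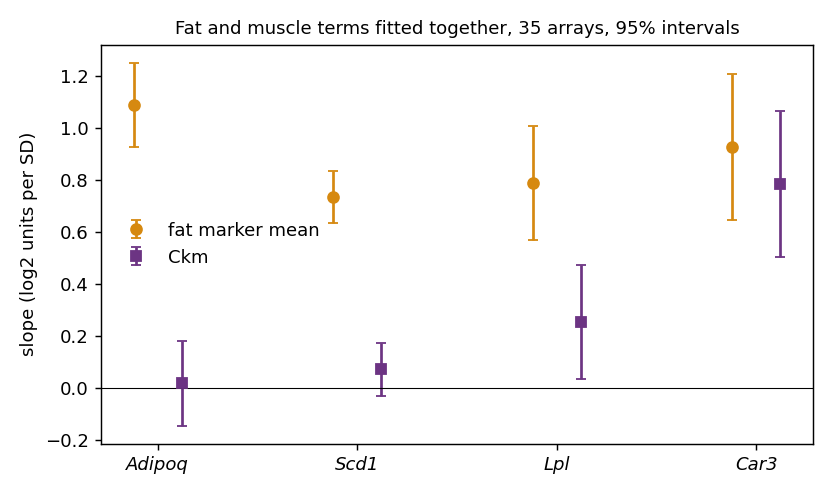
Slope of the log2 level of each gene (y axis, log2 units per SD) on the fat marker mean (orange circles) and on Ckm (purple squares), fitted together over 35 arrays, with 95% intervals. The slopes are 1.09 and 0.019 for Adipoq, 0.73 and 0.072 for Scd1, 0.79 and 0.26 for Lpl, and 0.93 and 0.79 for Car3, the gene whose intervals overlap.

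The members also moved with each other over the 35 arrays. Pearson r was 0.928 between Adipoq and Scd1, 0.871 between Adipoq and Lpl and 0.891 between Scd1 and Lpl. Car3 stood at 0.765 with Adipoq, 0.750 with Scd1 and 0.761 with Lpl. The largest permutation adjusted p of these 6 relations was 2.73e-05. All arrays share normalization and tissue makeup, so the relations are not independent of each other.

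Among all 9889 other genes, the 5 with the pattern most like Adipoq over 35 arrays were Chst1 (r = 0.961), Cd1d1 (0.943), Cdo1 (0.939), Cyp2e1 (0.936) and Aoc3 (0.932). For Scd1 they were Pparg (0.960), the carboxylesterase Ces1d (0.953), Lep (0.952), Nrg4 (0.943) and Fitm2 (0.933), the last of which encodes a protein of lipid droplet formation. For Lpl they were Ogn (0.928), Sult1a1 (0.919), Igfbp5 (0.902), Syap1 (0.900) and Cd1d1 (0.900). For Car3 they were Plpp3 (0.911), Itga7 (0.910), Synm (0.908), Diaph1 (0.905) and Gsn (0.904). Itga7 encodes an integrin chain of muscle and Synm an intermediate filament protein of muscle, and Synm itself had r = 0.884 with Ckm. Ckm ranked 1804th in likeness to Adipoq, 1943rd to Scd1, 1356th to Lpl and 183rd to Car3. Each fat marker ranked ahead of Ckm for Adipoq, Scd1 and Lpl. For Car3, the fat markers Cebpa (20th, r = 0.866), Plin4 (97th, 0.806) and Cidec (129th, 0.796) ranked ahead of Ckm. The other fat markers ranked behind it, from Pparg (343rd) to Aqp7 (1082nd). These are descriptions over arrays that share tissue makeup.

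By list, the 9 fat markers had a median r of 0.890 with Adipoq, 0.859 with Scd1, 0.781 with Lpl and 0.731 with Car3. The 18 measured muscle genes had 0.536, 0.593, 0.668 and 0.780, and over all genes tested the median lay between -0.049 and 0.021. The 4 fat markers with the highest mean level were Plin4, Lep, Cidec and Pparg, whose r with Adipoq were 0.916, 0.896, 0.930 and 0.909. The 4 muscle genes with the highest mean signal were Myl1, Acta1, Tnnc2 and Atp2a1, whose r with Car3 were 0.797, 0.838, 0.752 and 0.852. The lowest of the 18 with Car3 were the slow muscle troponins Tnnc1, at 0.288, and Tnnt1, at 0.503, named after their values were seen. The 9 melanocyte markers ran the other way for every member, with a median r of -0.628 for Adipoq, -0.606 for Scd1, -0.559 for Lpl and -0.478 for Car3. The 7 fibroblast genes had a median r of 0.761 with Adipoq, 0.800 with Scd1, 0.801 with Lpl and 0.768 with Car3, above the medians of the fat markers for Lpl and Car3. One of the 7, Fbln1, ran the other way, at -0.643, -0.548, -0.615 and -0.445. Scd1 is known from sebaceous glands too, and the 6 sebaceous genes had a median r of 0.595 with it, against 0.403 with Adipoq. Their part in the members' levels was not tested.

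The genes around each member in its pathway were less uniform. None of those named next was called in B16-WT against control. Fatty acid and triglyceride synthesis had 18 measured of 22 genes. With all arrays their median difference at day 14 of B16-WT from control was -0.45 with 14 of 18 negative, against 0.038 over all genes. Without the 3 arrays it was -0.12 with 10 negative, against -0.040. The 4 with the highest mean level were Acly, which makes cytosolic acetyl-CoA, the elongases Elovl5 and Elovl6, and Dgat2, which completes triglyceride, and their r with Scd1 was 0.468, 0.700, 0.804 and 0.926. Chosen after their values were seen, Scd2, a desaturase close to Scd1, and Fads2, which desaturates polyunsaturated fatty acids, ran against Scd1 over the 35 arrays, at r = -0.590 and -0.717. On D4-4, D14-2 and D14-5, where Scd1 was at its lowest, Scd2 read 10.53, 9.35 and 10.72, and 10.72 was its highest level in the series. Fads2 read 8.75, 8.53 and 9.72 there, where 9.72 was also its highest.

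Of 15 genes listed around lipoprotein lipase, among them its partners and some other lipases, 7 were measured. Their median difference at day 14 of B16-WT from control was -0.44 with all arrays and -0.11 without the 3. The 4 with the highest mean level were Mgll, a monoglyceride lipase, Angptl4, which inhibits lipoprotein lipase, Sel1l, needed for its maturation, and the lipoprotein receptor Vldlr. Their r with Lpl was -0.012, 0.650, 0.530 and 0.804. Gpihbp1, chosen for its role, which carries the enzyme across capillary endothelium, had -0.241. Angptl4 was near background on the 3 arrays, at 4.91 to 5.57, while Sel1l stood at 9.77 to 10.44 there.

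Apart from Car5b, the other carbonic anhydrases measured did not share the pattern of Car3. Of 15 listed, 8 were measured, with a median r of -0.209 with Car3. Among the 4 named by mean signal, Car14 had r = -0.482, Car13 0.179, Car12 0.269 and the hypoxia-induced Car9 -0.569. The mitochondrial Car5b had the highest, at 0.642, and its r with Adipoq was 0.829. On D4-4, D14-2 and D14-5, Car14 read 12.49, 12.94 and 13.09 while Car3 was at background. At day 14 of B16-WT against control, 4 of the 8 were higher and 4 lower, with a median difference of 0.060 with all arrays and -0.049 without the 3.

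The receptors and partners of adiponectin were present on all 38 arrays. Adipor1 and Adipor2, the 2 receptors, read 12.44 to 12.67 and 11.21 to 11.60 on the 3 arrays where Adipoq was at background. Appl1, an adaptor of the receptors, read 9.24 to 9.52 there, and Cdh13, which binds adiponectin at the cell surface, 7.68 to 9.31. Over the 35 arrays their r with Adipoq was 0.480 for Adipor1, 0.793 for Adipor2, 0.708 for Appl1 and 0.677 for Cdh13. Their median difference at day 14 of B16-WT from control was -0.41 with all arrays and -0.46 without the 3, and 4 of 4 were lower in both. None was called. Of the genes that fat shares with muscle or liver, Slc2a4, the insulin-regulated glucose transporter, had r = 0.794 with Car3 and 0.537 with Adipoq, Pnpla2, the first triglyceride lipase, 0.714 and 0.889, and Gpd1 0.527 and 0.344. Of brown fat genes, 4 of 6 were measured, and their median r ran from 0.416 with Adipoq to 0.592 with Scd1.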

How the data were processed

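The deposited non-normalized table gives linear signal intensity for 45272 probes per array, with a deposited detection p-value of each probe against negative controls. A second deposited table has log2 values for 16247 probes. By a test on the files these are quantile-normalized signals with no background correction (largest difference 5e-14). Its column medians lie between 8.50 and 8.57. BeadStudio and limma are named, without versions, per the submitters' processing notes. RNA was extracted with Trizol and RNeasy columns and labelled with biotin, per the labels' protocols. Scale and direction were settled from the files.

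Here the raw signals went through normexp of limma 3.58.1 (R 4.3.3) with detection p and an offset of 16, then quantile normalization and log2. The platform annotation at hand covered the 16247 probes of the second deposited table: 14836 had 1 symbol, 5 several and 1406 none, and 14830 matched the RefSeq gene table. The rest of the 45272 probes were not assigned to genes, so a gene counted here as not measured may have a probe among them. The filter (detected at p under 0.05 on 4 arrays or more) removed 0 named probes. Each gene took its probe with the highest mean, giving 9890 genes. A limma model with 7 group means over 38 arrays gave 15 comparisons of 2 groups and 2 interaction terms. P-values were adjusted by Benjamini-Hochberg over all genes, with calls at an adjusted p under 0.05. The fit was tested on simulated data. Slopes are from ordinary least squares with each term standardized over the arrays fitted (statsmodels 0.14.6). A fold from a group with arrays at background is not given.

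The members and gene lists were chosen with earlier results of these data known. Genes named were the 4 members, Ckm, the 5 most alike per member, and up to 4 members of each list by mean level; others are said to be chosen after their values were seen or stand in a list as its extreme or whole. Lists not detailed above, for macrophage, keratinocyte, endothelium and mammary epithelium genes, had median differences of -2.01, -3.59, -2.08 and -0.45 at day 14 of B16-WT against control, and -0.13, -0.29, -0.26 and 0.69 without the 3 arrays, with 0 genes called. Groups came from the labels. Over 102 pairs of same-numbered arrays of different groups the median correlation was 0.081, and 49 pairs exceeded 0.1. Over 514 other pairs the median was -0.028, and 199 exceeded 0.1. Whether the numbers pair the arrays was not tested. Alternatives were the 3 arrays left out, each array left out, other offsets, normalizations, filters, weights, fat and muscle measures, and the replicate number as a block. The number of arrays limits the precision.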

Additional observations from a re-analysis of the deposited data

Results flagged for a closer look

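In 35 sets of values, each a gene in a group of 4 to 7 arrays, 7 had an array far from the others of its group by Dixon's test. Chance flags about 1 in 20 independent sets. These sets share arrays and hold genes that move together, so the count of 7 cannot be set against that rate. All 7 fell on the arrays CTRL 6, D4-T6 and D4-V5. Array CTRL 6 was the lowest control for all 4 genes: Adipoq read 9.05 with the nearest control at 11.61, Scd1 12.25 with 13.85, Lpl 11.79 with 13.59, and Car3 9.96 with 13.26. The fat marker mean of CTRL 6 was 6.91, the lowest of the controls, and its Ckm 10.51, also the lowest. Car3 on D4-T6 read 9.80 with the nearest shTGFb day 4 array at 13.15. On D4-V5 Car3 read 8.46 with the nearest shVEGF day 4 array at 13.15, and Ckm read 7.65 with the nearest at 12.50.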

How the results depend on the processing

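Every call of 0 members stood under the alternatives run with all groups intact, among them the deposited normalized table, an offset of 50, cyclic loess, no normalization, no filter and array weights; leaving out 1 array gave 0 to 4 members called at day 14 of B16-WT against control and 0 to 3 for shVEGF against B16-WT at day 14 (without D14-1 or D14-4). With the replicate number as a block limma called 0 members in every comparison. It gave -3.07 for Adipoq and -4.12 for Lpl at day 14 of B16-WT against control (adjusted p = 0.149 each). Without the 3 arrays the signs reversed for shTGFb against B16-WT at day 14 (Adipoq -0.40, Scd1 -0.32, Lpl -0.47, Car3 -0.46), for Scd1 in shVEGF against B16-WT (-0.043 at day 4, -0.028 at day 14), for the median of the 4 genes between the days of B16-WT (0.35) and for its shVEGF interaction (-0.12). For shTGFb day 4 against control, Scd1 turned to 0.023 with cyclic loess and 0.0093 without normalization, and with array weights Adipoq to -0.45 and Lpl to -0.27. Array weights also gave 0.31 for Adipoq, 0.091 for Lpl and 0.20 for Car3 in shVEGF day 14 against control, and medians of 0.12 between the days of shTGFb, -0.0010 for shTGFb against shVEGF at day 4 and 0.84 for the shTGFb interaction. The Ckm slope of Adipoq was -0.0011 without normalization and 0.33 (p = 0.0239, n = 38) on all arrays. The slope difference of Car3 was -0.082 with the mean of Plin1, Cidec and Adig, and that of Lpl was 0.48 (p = 0.29, n = 38) on all arrays. Each slope is per SD over the arrays of its own fit. The cause of these changes was not tested.

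Leaving out 1 array at a time, the following values changed sign at least once. Against control they ran from -0.39 to 0.23 for Adipoq, -0.32 to 0.0059 for Scd1, -0.26 to 0.14 for Lpl and -0.73 to 0.47 for Car3 at day 4 of shTGFb. At day 14 of shVEGF they ran from -0.55 to 0.32 for Adipoq, -0.39 to 0.14 for Lpl and -0.71 to 0.13 for Car3. At day 4 of shVEGF they ran from -0.73 to 0.089 for Adipoq and -1.13 to 0.47 for Car3, and against B16-WT from -0.043 to 1.16 for Scd1. The median of the 4 genes ran from -2.32 to 0.37 between the days of B16-WT, -0.020 to 0.59 between those of shVEGF, -1.22 to 1.53 for the shTGFb interaction and -0.11 to 2.62 for the shVEGF interaction. The slope difference of Car3 ran from -0.15 to 0.42 and the Ckm slope of Adipoq from -0.038 to 0.10. Of 64 correlations under other settings and 280 with 1 array left out, all kept their sign and their side of the threshold. A slide block was not run, as no slides are named. Requiring detection on all arrays left 6639 genes and 1 member, Scd1. Quantile normalization without background correction is the deposited table itself. Each member has 1 annotated probe, so cross-reaction was not tested.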
